A study of Mus musculus with 12 samples.

Results

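The brush border digestive enzymes are a group of 10 genes whose proteins sit on the luminal face of the enterocyte, namely Sis, Mgam, Lct, Treh, Anpep, Dpp4, Enpep, Mep1a, Tmprss15 and Alpi. They were chosen by function and taken by symbol from the 55416 genes of the duodenal table, where each of the 10 symbols had 1 row. The samples came from male C57BL6/J mice, 8 weeks old at the start, injected under the skin once a day with CORT, at 40 mg/kg, or with vehicle over 8 weeks. The CORT solution contained DMSO and Tween-80, and the methods give a volume but no recipe for the vehicle. No mouse carried a transgene or a deletion that the labels or methods mention. RNA-seq was performed on the duodenum and the liver of CORT-treated and vehicle-treated (Veh) mice, with 3 libraries per group and tissue and 12 in all, here called Veh1 to Veh3 and CORT1 to CORT3 after their replicate labels. The labels call the gut samples intestine and the methods name the duodenum, and the labels do not say whether the liver and gut libraries of 1 number came from 1 mouse.

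Corticosterone is the main glucocorticoid of rodents, and the comparison of CORT with Veh asked how prolonged exposure changed gene expression in the gut. Most brush border enzymes are glycoproteins held at the microvillus membrane of mature enterocytes. Many of them cut the oligosaccharides and peptides left by salivary, gastric and pancreatic digestion into units that the neighbouring carriers take up. Tmprss15 and Alpi act on other substrates, given below. Brush border enzymes appear as cells leave the crypt and move up the villus, under transcription factors of the HNF1, HNF4, GATA and CDX families. Several are graded along the length of the small intestine. Lactase and trehalase each handle a single dietary sugar, whereas the sucrase-isomaltase and maltase-glucoamylase proteins share the work on starch fragments.

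In the duodenum none of the 10 enzymes passed the test between CORT-treated and Veh mice, and the levels of 9 of them overlapped between the groups. All 10 were tested in limma, which steadies each gene's estimate of spread with those of other genes, on log2(TPM + 1) over 13607 genes, and 0 of 10 passed an adjusted p of 0.05 with a fold change over 1.5. The same limits were passed by 2.15% of all tested genes, and at an unadjusted p under 0.05 with that fold change 0 of 10 enzymes passed, against 10.3% of all tested genes. The log2 fold change was above 0 for 6 enzymes and below 0 for 4, with a median of 0.24. Over all tested genes 48.5% were above 0 and the median was -0.01. Of the 4, Sis and Tmprss15 came out above 0 when libraries were scaled by pan-epithelial genes, which moved the median of all tested genes to 0.16. The 3 CORT values stood clear of the 3 Veh values for 1 enzyme, Mgam, as they did for 26.4% of all tested genes. In an RNA sample from whole tissue, fewer cells of a type and less RNA per cell cannot be told apart. TPM is scaled per transcript length and per library, so the number of reads behind each value is unknown, and the smallest two-sided p of an exact permutation test is 0.1 with 3 libraries on each side.

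The plain differences between the enzymes lay in their levels and in how much they varied from library to library. By mean TPM in Veh, a level that takes account of transcript length, the order was Anpep, Alpi, Sis, Mgam, Treh, Lct, Enpep, Dpp4, Tmprss15 and Mep1a. Neighbours in this order were separated in all 6 duodenal libraries at 2 places, between Alpi and Sis and between Enpep and Dpp4. Sis lay just above Mgam in Veh, where the lowest Sis value was 684 TPM and the highest Mgam value 683.6 TPM, but they overlapped once the CORT libraries were included. All other neighbours overlapped. Anpep ranked between 20 and 80 among all genes of a library and Alpi between 38 and 92, while Mep1a ranked between 1846 and 5243. Together the 10 enzymes made up 0.672% to 0.991% of TPM in Veh and 0.599% to 0.781% in CORT-treated duodenum.

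**Figure D1:**
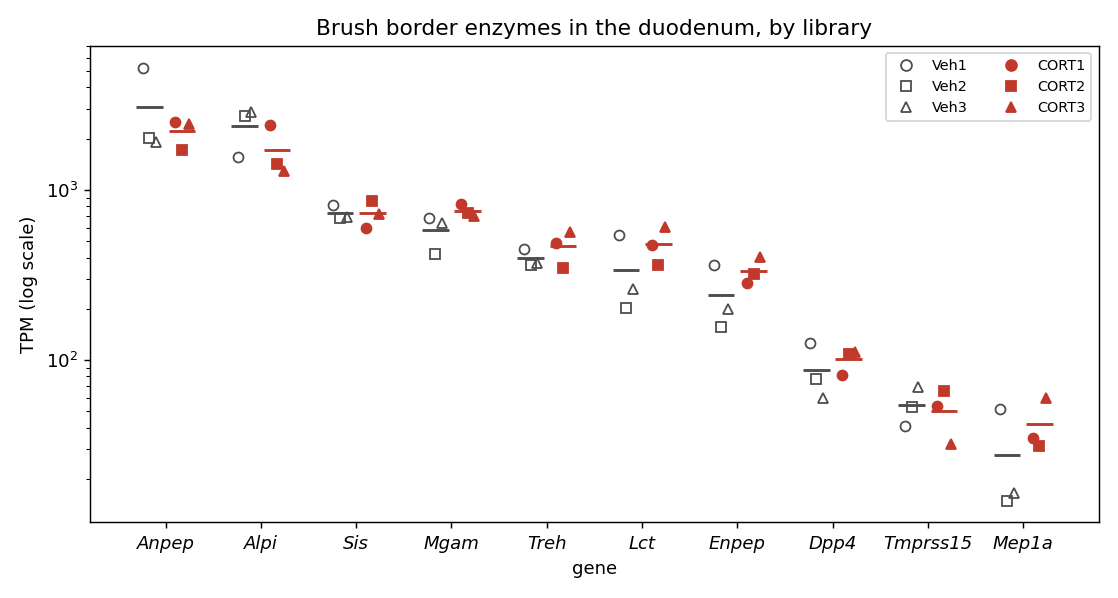
TPM of each brush border enzyme in each duodenal library on a log axis, with open grey symbols for Veh, filled red symbols for CORT and a bar at each group mean (n = 3 per group). The groups overlap for every enzyme except Mgam, and the circle of Veh1 stands far above the square of Veh2 and the triangle of Veh3 for Anpep, Lct, Enpep and Mep1a.

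Of the disaccharidases, Sis (ENSMUSG00000027790), the sucrase-isomaltase that splits sucrose and the branch points of starch, held 817, 684 and 694 TPM in Veh1, Veh2 and Veh3. The CORT libraries held 599.5, 865 and 723 TPM, which bracketed all 3 Veh values. Sis was at 729 ± 133 TPM (SD, n = 3) in CORT-treated and 732 ± 73.7 TPM (SD, n = 3) in Veh duodenum, a log2 fold change of -0.02 (standard error 0.17, 95% interval -0.42 to 0.39, limma adjusted p = 0.970). It was the steadiest of the 10, with a highest library 1.44 times the lowest. Mgam (ENSMUSG00000068587), the maltase-glucoamylase that frees glucose from starch chains, held 684, 421 and 637 TPM in the Veh libraries and 827, 729.6 and 706 TPM in the CORT libraries. All 3 CORT values lay above all 3 Veh values, the narrowest gap being 684 against 706 TPM. The log2 fold change of Mgam was 0.40 and missed the threshold (standard error 0.21, 95% interval -0.08 to 0.89, limma adjusted p = 0.338).

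Lct (ENSMUSG00000026354), the lactase that splits milk sugar, held 544, 203 and 261 TPM in Veh1 to Veh3 and 474, 363 and 602 TPM in CORT1 to CORT3. Veh1 exceeded both CORT1 and CORT2, so the groups overlapped although the other Veh libraries were the lowest of the 6. The means were 479.5 ± 119.7 TPM (SD, n = 3) in CORT and 336 ± 182 TPM (SD, n = 3) in Veh, a log2 fold change of 0.61 (standard error 0.37, 95% interval -0.27 to 1.49, limma adjusted p = 0.418). Treh (ENSMUSG00000032098), the trehalase that splits the sugar of fungi and insects, held 452, 363 and 371 TPM in Veh and 487, 349 and 564 TPM in CORT. CORT2 was the lowest and CORT3 the highest of the 6 libraries. The log2 fold change of Treh in the duodenum was 0.22 (standard error 0.20, 95% interval -0.26 to 0.70, limma adjusted p = 0.590). The summed TPM of the 4 disaccharidases was 2496, 1672 and 1964 in Veh1 to Veh3 and 2387, 2306 and 2596 in CORT1 to CORT3, so Veh1 fell among the CORT libraries.

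Of the peptidases, Anpep (ENSMUSG00000039062), the aminopeptidase N that removes neutral residues from the amino end of peptides, held 5238, 2025 and 1914 TPM in Veh1 to Veh3. The CORT libraries held 2499, 1709 and 2429 TPM. Veh1 stood alone, 2.66 times the mean of the other Veh libraries, and the remaining 5 libraries lay within 1709 to 2499 TPM. The mean of 3059 ± 1888 TPM (SD, n = 3) in Veh against 2212 ± 437 TPM (SD, n = 3) in CORT therefore rested on 1 library. The log2 fold change was -0.32 (standard error 0.40, 95% interval -1.27 to 0.62, limma adjusted p = 0.687), and without Veh1 it was 0.15. Dpp4 (ENSMUSG00000035000), the dipeptidyl peptidase that clips proline-containing dipeptides and inactivates incretin hormones, held 125, 77.5 and 59.7 TPM in Veh and 82.1, 109 and 112 TPM in CORT. Veh1 was again the highest library, and the log2 fold change was 0.26 (standard error 0.28, 95% interval -0.40 to 0.91, limma adjusted p = 0.642).

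Enpep (ENSMUSG00000028024), the aminopeptidase A that removes acidic residues, held 363, 157 and 199.7 TPM in Veh1 to Veh3 and 282, 322 and 402 TPM in CORT1 to CORT3. Veh2 and Veh3 were the lowest libraries and Veh1 was second only to CORT3. The log2 fold change was 0.56 (standard error 0.31, 95% interval -0.18 to 1.30, limma adjusted p = 0.379). Mep1a (ENSMUSG00000023914), the alpha subunit of the metalloprotease meprin, held 51.2, 14.9 and 16.5 TPM in Veh and 34.6, 31.2 and 59.9 TPM in CORT. It varied most of the 10, with a highest library 4.01 times the lowest, and Veh1 was at 3.26 times the mean of the other Veh libraries. Its log2 fold change of 0.75 had a standard error of 0.48 and a 95% interval from -0.38 to 1.89 (limma adjusted p = 0.433). Without Veh1, the log2 fold changes of Enpep and Mep1a were 0.90 and 1.30 and neither passed.

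Tmprss15 (ENSMUSG00000022857) encodes enteropeptidase, which converts pancreatic trypsinogen to trypsin and so starts the activation of the other pancreatic proteases. It held 40.8, 53.2 and 69.4 TPM in Veh1 to Veh3 and 53.6, 65.6 and 32.3 TPM in CORT1 to CORT3. The highest library was Veh3, CORT2 came next and CORT3 was the lowest, so the groups overlapped. The log2 fold change was -0.13 (standard error 0.30, 95% interval -0.84 to 0.57, limma adjusted p = 0.834). Alpi (ENSMUSG00000079440), the intestinal alkaline phosphatase that takes phosphate from lipids, nucleotides and bacterial endotoxin, held 1560.0, 2704 and 2888 TPM in Veh and 2415, 1414 and 1298 TPM in CORT. Veh2, Veh3 and CORT1 were the high libraries and the other 3 were low, with Veh1 on the low side. Alpi had the lowest log2 fold change of the 10, -0.49 (standard error 0.32, 95% interval -1.25 to 0.28, limma adjusted p = 0.453).

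**Figure D2:**
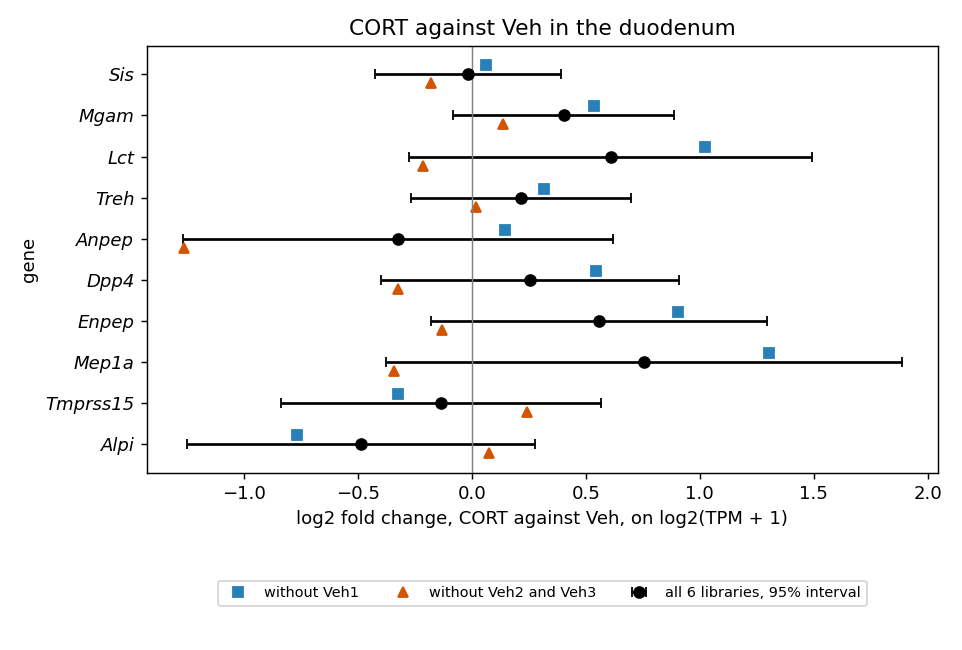
Log2 fold change of CORT against Veh on the log2(TPM + 1) scale for each enzyme in the duodenum, with the 95% interval from limma as a bar around the value of all 6 libraries (black circles). The intervals all span 0, from Mgam (-0.08 to 0.89) to Mep1a (-0.38 to 1.89), and the values without Veh1 (blue squares) and without Veh2 and Veh3 (orange triangles) lie on opposite sides of 0 for 8 of the 10 enzymes.

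The enzymes differed between Veh libraries by more than the median gene. Veh1 differed from the mean of Veh2 and Veh3 by a median of 0.85 on the log2 scale over the 10 enzymes, in either direction, against a median of 0.21 over the 13607 tested genes. The difference between the highest and lowest of the 6 libraries had a median of 1.12 on the log2 scale for the enzymes and 0.69 for all tested genes. This look at the libraries was chosen after their values were seen and is a description. Veh1 exceeded the mean of the other Veh libraries 2.34-fold for Lct, 2.04-fold for Enpep and 1.83-fold for Dpp4, and it was lower for Tmprss15 (ratio 0.666) and Alpi (ratio 0.558). For Sis, Treh and Mgam the ratios were 1.18, 1.23 and 1.29. A higher level in Veh1 was not limited to the enzymes. Genes of brush border structure, described below, summed to 5422 TPM in Veh1, 4097 TPM in Veh2 and 4485 TPM in Veh3. The listed carriers summed to 2683, 2007 and 2266 TPM in the same libraries. The other brush border hydrolases went the other way, with sums of 5057, 8275 and 9281 TPM. Of these sums Akp3 held 499, 5068 and 6247 TPM.

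From the highest to the lowest library, Lct and Mep1a shared the order CORT3, Veh1, CORT1, CORT2, Veh3 and Veh2. Enpep differed from it only in the exchange of CORT1 and CORT2. Alpi ran nearly the other way, from Veh3 and Veh2 through CORT1, Veh1 and CORT2 to CORT3. Thus the 2 libraries richest in Lct, Enpep and Mep1a, CORT3 and Veh1, came from different groups, and the 2 poorest were Veh2 and Veh3. The ratio of Alpi to Anpep was 0.298 in Veh1, 1.34 in Veh2 and 1.51 in Veh3, and 0.966, 0.828 and 0.535 in CORT1 to CORT3, so the CORT libraries fell within the range of Veh. Alpi and Anpep together made up 67.5% to 70.5% of the summed TPM of the 10 enzymes in Veh and 52.4% to 63.4% in CORT, without overlap, a share looked at after the values were seen and not tested.

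**Figure D3:**
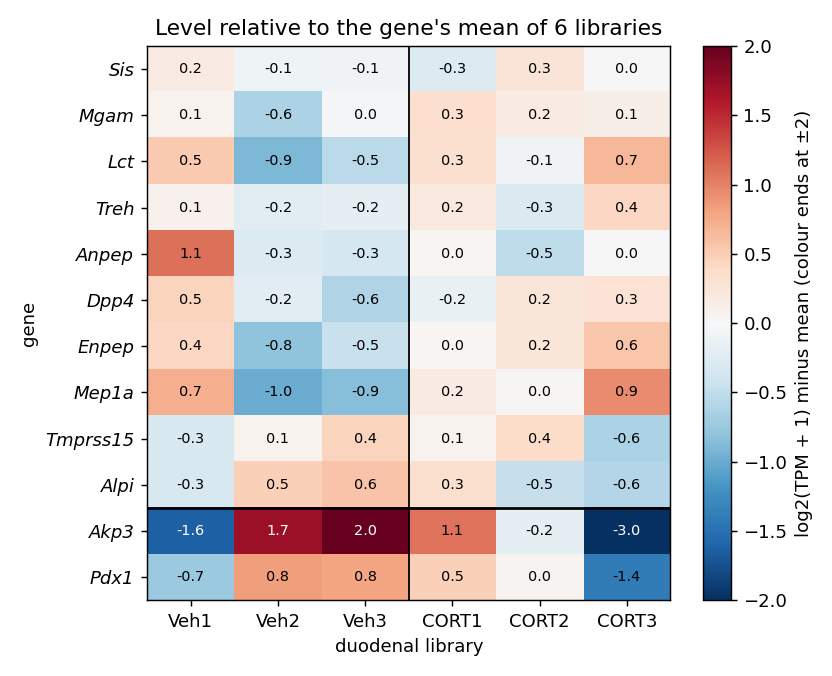
Difference of log2(TPM + 1) from each gene's mean of 6 duodenal libraries, with libraries as columns and genes as rows, red for above and blue for below the mean and the colour ending at 2. Veh1 and CORT3 are red together for Lct, Enpep and Mep1a and blue together for Tmprss15 and Alpi, and the added genes Akp3 and Pdx1 run in a similar order to Alpi over a wider range.

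Veh1 also stood apart from Veh2 and Veh3 in markers of other cell types, of which the genes named were picked after their values were seen. The summed TPM of 24 genes of pancreatic acinar cells came to 3.95% of Veh2 and 3.13% of Veh3, but to 0.0246% in Veh1 and 0.0254% to 0.0459% in the CORT libraries. Most of the sum in the CORT libraries came from Clps and Klk1, which Veh1 held at 83.6 and 71.8 TPM. Of the 23 acinar genes tested, 23 had a log2 fold change below 0, beside 48.5% above 0 over all tested genes. Of them 15 did not overlap between groups, against 26.4% of all tested genes. In limma 0 of them were called, against 2.15%, or 20 without adjustment of the p-values, against 10.3%. Ctrb1, the chymotrypsinogen gene, was at 7733 TPM in Veh2, 6026 TPM in Veh3 and 14.5 TPM in Veh1, and between 0.28 and 0.76 TPM in CORT. Cela2a, a pancreatic elastase, had 4168 TPM in its highest library, Veh3, 28.75 TPM in Veh1 and 0.06 TPM in its lowest, CORT3. The part of the pancreatic transcripts in the differences of the enzymes was not tested, but with these genes removed and the libraries rescaled 0 of 10 enzymes passed. Paneth cell genes, 7 in all, summed to 9604 TPM in Veh1 and 10955 TPM in CORT1, against 18283 to 29978 TPM in the other 4 libraries.

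The 8 smooth muscle genes summed to 646, 932 and 473 TPM in Veh1 to Veh3 and to 314 to 507 TPM in CORT. Their log2 fold change was below 0 for 8 of 8, beside 48.5% above 0 over all tested genes, with a median of -0.64. With pan-epithelial scaling, which moved the median of all tested genes to 0.16, it was below 0 for 6 of 8. Pan-epithelial genes, 6 in all and led by Krt8 and Krt19, held 0.524% to 0.596% of TPM in Veh and 0.423% to 0.538% in CORT, with a median log2 fold change of -0.20. The 7 villus tip genes held 1.05% to 1.42% in Veh and 1.84% to 2.43% in CORT, of which Apoa4, a lipoprotein gene, was the main part with 7906 to 12570 TPM in Veh and 16882 to 21545 TPM in CORT (log2 fold change 1.07, limma adjusted p = 0.0703). The other 6 left the median of this list at 0.02. The 7 goblet cell genes held 1.02% to 1.21% of TPM in Veh and 1.08% to 1.38% in CORT. The 7 crypt genes summed to 297 to 388 TPM in Veh and 268 to 315 TPM in CORT, and the 7 immune genes to 36.7 to 61.1 TPM and 35.8 to 64.9 TPM. Over these 6 lists limma called 0 genes, against 2.15% of all tested genes. Without adjustment 3 of 8 smooth muscle genes and 2 of 7 villus tip genes passed, against 10.3% of all tested genes. Their part in the results was not tested. Of stomach genes 6 of 7 were listed and summed to 1.97 to 5.11 TPM, and the hepatocyte gene Alb was at 0.13 to 0.39 TPM, near 0 in every duodenal library. The list of 6 hepatocyte genes summed to 270.0 to 654 TPM there, most of it from Cps1 and Pck1, which the gut expresses too. The microvillus protein villin (Vil1) which marks enterocytes, was at 839 to 1436 TPM.

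Beyond the 10, 16 other brush border hydrolases were listed and 14 were tested, with Folh1 and Plb1 below the limit on expression. Of these 0 passed in limma, against 2.15% of all tested genes, and 2 passed unadjusted, against 10.3%. The log2 fold change was above 0 for 5 and below 0 for 9, beside 48.5% above 0 over all tested genes, and its median was -0.03. With pan-epithelial scaling, which moved the median of all tested genes to 0.16, it was above 0 for 10 and below 0 for 4. Akp3, a second alkaline phosphatase of the small intestine and close in sequence to Alpi, so that reads can be split between them, was the highest. It held 499 TPM in Veh1, 5068 TPM in Veh2, 6247 TPM in Veh3, 3289 TPM in CORT1, 1370.3 TPM in CORT2 and 189.9 TPM in CORT3. Its highest library held 32.9 times its lowest, and Veh2, Veh3 and CORT1 were the high libraries as they were for Alpi. Its log2 fold change was -1.40 (standard error 1.28, limma adjusted p = 0.579), and it ran from -2.56 without Veh1 to -0.24 without CORT3. Ggt1, a gamma-glutamyl transferase that breaks down glutathione, was at 1082 ± 228 TPM (SD, n = 3) in CORT and 1065 ± 58.6 TPM (SD, n = 3) in Veh, a log2 fold change of 0.00 (limma adjusted p = 0.998).

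Other hydrolases were looked at after their values were seen. Naaladl1, a peptidase, was highest in Veh1 (176 TPM) and CORT3 (138 TPM) and lowest in Veh2 (51.4 TPM), with the order of Lct apart from the exchange of these highest libraries. Enpp7, the alkaline sphingomyelinase, was at 112 TPM in Veh1 and 69.0 TPM in CORT3, and at 11.6 to 23.8 TPM in the other 4 libraries. Mep1b, the partner subunit of Mep1a in meprin, was at 736 TPM in Veh1 and 574 TPM in CORT3, and its lowest library was Veh2 with 378 TPM, as for Mep1a.

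Of 14 genes of brush border structure 13 were tested and 0 passed in limma, against 2.15% of all tested genes, 0 also unadjusted, against 10.3%. The log2 fold change was above 0 for 6 and below 0 for 7, beside 48.5% above 0 over all tested genes, and its median was -0.02. With pan-epithelial scaling, which moved the median of all tested genes to 0.16, it was above 0 for 10 and below 0 for 3. Vil1, which bundles the actin core of microvilli, had a log2 fold change of -0.16 (limma adjusted p = 0.706), and Cdhr5, a cadherin that links microvilli at their tips, one of 0.30 (limma adjusted p = 0.463). Of 12 enterocyte transcription factors 0 passed in limma, against 2.15% of all tested genes, and 2 passed unadjusted, against 10.3%. The log2 fold change of these factors was above 0 for 7 and below 0 for 5, with a median of 0.02, or above 0 for 8 and below 0 for 4 with the same scaling. The highest of them were Creb3l3, a regulator of lipid genes (log2 fold change 0.63, limma adjusted p = 0.175), and Hnf4a, a driver of the enterocyte programme (log2 fold change -0.21, limma adjusted p = 0.396). Pdx1, a factor of the pancreas and the proximal duodenum that was picked after its values were seen, was at 13.4, 41.9 and 40.6 TPM in Veh1 to Veh3 and 32.4, 23.9 and 8.13 TPM in CORT1 to CORT3. Its high libraries were Veh2, Veh3 and CORT1 and its lowest were CORT3 and Veh1, as for Akp3, and its part in the levels of the enzymes was not tested. Pdx1 had a log2 fold change of -0.59 (limma adjusted p = 0.616), which ran from -1.10 without Veh1 to -0.032 without CORT3.

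Of the carriers that take up what these enzymes release, 1 passed and was lower in CORT. All 9 were tested and 1 passed in limma, against 2.15% of all tested genes, and 3 passed unadjusted, against 10.3%. The groups did not overlap for 4, all lower in CORT, against 26.4% of all tested genes. Besides Slc1a1 these were Slc2a5 (146 TPM in Veh and 86.1 TPM in CORT, limma adjusted p = 0.0559), Slc6a20a (146 and 67.35 TPM, limma adjusted p = 0.0909) and Slc7a9 (143 and 106 TPM, limma adjusted p = 0.196). They were named after their values were seen. Among the carriers the log2 fold change was above 0 for 1 and below 0 for 8, beside 48.5% above 0 over all tested genes. Its median was -0.43, beside -0.01 over all tested genes. When libraries were scaled by pan-epithelial genes it was above 0 for 4 and below 0 for 5. That scaling moved the median of all tested genes to 0.16 and that of the carriers to -0.26. The summed TPM of the carriers overlapped between groups, at 2007 to 2683 in Veh and 1866 to 2609 in CORT. Slc1a1, a transporter of glutamate and aspartate, held 14.5, 11.7 and 11.2 TPM in Veh1 to Veh3 and 5.70, 4.63 and 6.92 TPM in CORT1 to CORT3. Every CORT library lay below every Veh library, at 5.75 ± 1.15 TPM (SD, n = 3) against 12.5 ± 1.77 TPM (SD, n = 3), so that the log2 value fell by 1.00 (standard error 0.17, limma adjusted p = 0.0392). The call did not survive the loss of any single library, with adjusted p-values between 0.0633 (without CORT3) and 0.119 (without Veh3), although the log2 fold change stayed between -1.13 and -0.88. The highest carriers were Slc5a1, the sodium-glucose cotransporter (log2 fold change 0.28, limma adjusted p = 0.445), and Slc6a19, a carrier of neutral amino acids (log2 fold change -0.14, limma adjusted p = 0.804).

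In the liver the enzymes fell into a group that was measured and a group that was nearly absent, and 1 of them, Treh, rose. The tables of duodenum and liver were normalised separately, so the levels are set side by side with no test. The 10 enzymes summed to 121 to 138 TPM in Veh and 129 to 132 TPM in CORT-treated liver, or 0.0122% to 0.0138% of TPM in Veh. Sis, Lct and Tmprss15 were between 0 and 0.02 TPM in every liver library, and Alpi was listed at 0 in all 6. Of the 10, 5 reached a mean of 1 TPM in either group and were tested, and 1 of the 5 passed, against 6.92% of the 11699 tested liver genes, or 4.91% for genes higher in CORT. Treh reached that limit only in CORT, with a mean of 0.870 TPM in Veh, so the number tested depended on its rise. With no limit on expression 9 were tested and 1, Treh, passed (limma adjusted p = 0.0128). CORT and Veh values stood clear of each other for 1 of the 5, against 32.2% of all tested liver genes. Over all tested genes of the liver the log2 fold change had a median of 0.08.

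Treh held 0.61, 1.30 and 0.70 TPM in the Veh livers and 7.75, 7.79 and 8.02 TPM in the CORT-treated livers. All 3 CORT values were close together and far above the highest Veh value. The means were 7.85 ± 0.146 TPM (SD, n = 3) and 0.870 ± 0.375 TPM (SD, n = 3), a ratio of 9.03, and the log2 fold change on the log2(TPM + 1) scale, which understates the change of low genes, was 2.26 (standard error 0.18, 95% interval 1.85 to 2.68, limma adjusted p = 0.00187). Treh passed in 12 of 12 alternative settings, with adjusted p-values from 0.00187 to 0.0178. Among these, unadjusted p-values and no fold limit only loosened the call of the main fit, so Treh could not fail them. In the duodenum Treh had 349 to 564 TPM and did not pass, and the difference between the tissues in the effect of CORT was not tested. Of the 14 genes of brush border structure 5 were tested in the liver. In limma 0 of them were called, against 6.92% of all tested liver genes, 0 also without adjustment, against 15.5%. The list summed to 88.6 to 118 TPM in Veh and 75.8 to 93.1 TPM in CORT. Most of that came from Cdhr5 (33.1 to 54.1 TPM), Pdzk1 (17.8 to 30.6 TPM) and Anks4b (14.95 to 21.9 TPM), while Vil1 was at 0.02 to 0.34 TPM and the enzymes Alpi and Akp3 at 0 in all 6 libraries. The villus tip list was also higher in CORT, with a sum of 320 to 415 TPM in Veh and 859 to 4180 TPM in CORT. Of its 5 tested genes 3 passed, all higher, against 4.91% of all tested liver genes, and 1 was below 0 on the log2 scale. Those that passed were Apoa4 (76.2 to 172 TPM in Veh and 555 to 3840 TPM in CORT, limma adjusted p = 0.0239), Creb3l3 (limma adjusted p = 0.0192) and Nt5e (limma adjusted p = 0.0224). Nt5e had a mean of 0.94 TPM in Veh, so it was tested only through its CORT values. The list of 12 enterocyte transcription factors, which also holds Creb3l3, had 6 tested in the liver. Of these 4 passed, all higher, against 4.91% of all tested liver genes. The groups did not overlap for any of the 6, with 5 higher and 1 lower in CORT, against 32.2% of all tested liver genes. The part of these lists in the rise of Treh was not tested. Apoa4 and Creb3l3 are also known as genes of the hepatocyte. The 6 pan-epithelial genes summed to 133 to 189 TPM in Veh and 73.0 to 99.3 TPM in CORT-treated liver. Of 5 tested 5 were below 0, beside 58.4% above 0 over all tested liver genes. Of them 2 passed as lower, against 2.01%, and 4 did not overlap between groups, against 32.2%. The 6 cholangiocyte genes summed to 10.7 to 13.9 TPM in Veh and 8.77 to 12.3 TPM in CORT-treated liver. Of 4 tested 0 passed and 3 did not overlap, 1 higher and 2 lower in CORT. The 6 hepatocyte genes held 6.33% to 8.99% of TPM in Veh and 6.83% to 9.04% in CORT. The part of these lists was not tested either.

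**Figure D4:**
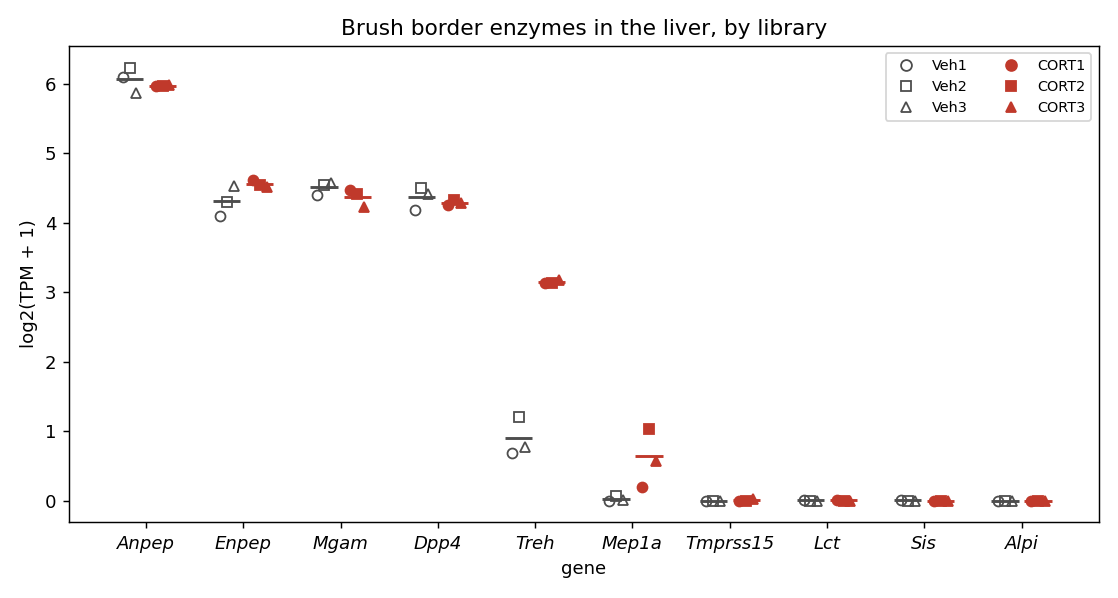
log2(TPM + 1) of each enzyme in each liver library, with open grey symbols for Veh, filled red symbols for CORT and a bar at each group mean (n = 3 per group). Treh is the enzyme with well separated groups, at 0.61 to 1.30 TPM in Veh and 7.75 to 8.02 TPM in CORT, and 4 enzymes lie at or near 0.

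The other enzymes tested in the liver did not pass. Anpep held 67.4, 74.0 and 57.1 TPM in Veh and 61.7, 61.2 and 62.3 TPM in CORT (log2 fold change -0.09, limma adjusted p = 0.697). Mgam held 20.1, 22.2 and 22.8 TPM in Veh and 21.2, 20.3 and 17.7 TPM in CORT (log2 fold change -0.13, limma adjusted p = 0.538). In both the groups overlapped. Dpp4 held 17.1, 21.5 and 20.3 TPM in Veh and 18.0, 19.0 and 18.5 TPM in CORT (log2 fold change -0.08, limma adjusted p = 0.737). Enpep held 16.0, 18.6 and 22.1 TPM in Veh and 23.3, 22.2 and 21.8 TPM in CORT (log2 fold change 0.25, limma adjusted p = 0.324). The lowest CORT library of Enpep lay just under Veh3, so these groups overlapped as well. Mep1a held 0, 0.05 and 0.01 TPM in Veh and 0.15, 1.05 and 0.49 TPM in CORT, without overlap but below the limit on expression, and in the fit with no such limit it did not pass (limma adjusted p = 0.249). Of the 16 other hydrolases 6 were tested in the liver and 1 passed, against 6.92% of all tested liver genes. This was Nt5e, the ecto-nucleotidase that forms adenosine, a gene named after its values were seen, with 0.51, 1.61 and 0.70 TPM in Veh and 3.90, 3.47 and 3.98 TPM in CORT (log2 fold change 1.34, limma adjusted p = 0.0224). When libraries were left out singly its call was lost in 5 of 6 fits, where the adjusted p reached 0.0863 without CORT1, and it held without Veh2 (adjusted p = 0.0138). Nt5e reached the limit on expression only in CORT, at a mean of 3.78 TPM against 0.94 TPM in Veh. Ace (1.45 and 0.493 TPM) and Dpep1 (1.11 and 0.590 TPM) did too, so the 6 tested depended on higher CORT values. With no such limit Nt5e did not pass (limma adjusted p = 0.0758).

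The promoters of the enzymes were read from RefSeq on mouse build GRCm38.p6, which is older than the build of the deposited tables, and are printed to show which short words lie ahead of genes that shared or opposed each other in library order, and ahead of Treh, the gene that rose in the liver. A window of 250 bases before the start was found for 10 of 10 enzymes. The words searched on both strands were CAAAGTCCA for HNF4, GATAA for GATA factors, GTTAAT for HNF1, TTTAT for CDX factors and ACANNNTGT for the glucocorticoid receptor. The run TTTATC holds both the CDX word and, on the other strand, the GATA word, so these counts can overlap. Treh lies at chr9:44672983-44673232 on the plus strand and Alpi at chr1:87101607-87101856 on the minus strand, each with the HNF4 word in capitals. Lct lies at chr1:128328319-128328568 and Mep1a at chr17:43502774-43503023, both on the minus strand, each with the GATA word in capitals. All are written 5′ to 3′ along the gene.
Treh: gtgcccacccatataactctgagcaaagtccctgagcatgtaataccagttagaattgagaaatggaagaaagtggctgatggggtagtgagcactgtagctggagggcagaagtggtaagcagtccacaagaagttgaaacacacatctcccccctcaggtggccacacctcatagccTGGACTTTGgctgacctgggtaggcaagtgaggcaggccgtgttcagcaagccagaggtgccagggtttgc
Alpi: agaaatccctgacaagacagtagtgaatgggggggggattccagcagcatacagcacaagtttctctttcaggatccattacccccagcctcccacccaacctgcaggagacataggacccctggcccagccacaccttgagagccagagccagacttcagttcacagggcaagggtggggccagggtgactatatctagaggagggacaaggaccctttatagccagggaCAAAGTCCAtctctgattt
Lct: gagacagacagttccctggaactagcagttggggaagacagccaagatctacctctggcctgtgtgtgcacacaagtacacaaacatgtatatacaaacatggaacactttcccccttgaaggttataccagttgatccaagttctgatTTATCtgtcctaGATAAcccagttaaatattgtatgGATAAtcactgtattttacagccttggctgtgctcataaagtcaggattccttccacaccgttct
Mep1a: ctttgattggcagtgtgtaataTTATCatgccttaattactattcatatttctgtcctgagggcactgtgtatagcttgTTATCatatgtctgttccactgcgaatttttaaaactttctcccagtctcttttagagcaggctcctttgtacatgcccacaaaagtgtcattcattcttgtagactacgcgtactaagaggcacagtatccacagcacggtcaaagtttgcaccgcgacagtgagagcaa

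The HNF4 word occurred in Treh, with its first base 71 bases before the start, and in Alpi, 19 bases before the start, and it occurred in 0.384% of the 32851 promoter windows of the same length. The GATA word occurred in 5 of 10 enzymes and in 22.6% of all windows. It occurred 3 times in Lct, between 101 and 65 bases before the start, 2 times each in Mep1a and Mgam, and once each in Dpp4 and Enpep. The CDX word occurred in 7 of 10 enzymes and in 37.3% of all windows. The HNF1 word, the left arm of that factor's palindrome, was in 2 of 10 enzymes (Sis and Tmprss15) and 6.43% of all windows, and the glucocorticoid receptor word in 0 of 10 and 5.84%. Such matches describe the letters in these windows and not the binding of a factor.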

How the data were processed

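Total RNA of duodenum and liver was sequenced in 12 samples. The authors used SeqPrep and Sickle for trimming, HISAT2 for alignment and RSEM for quantification, and the submitters' processing notes also name StringTie and the build GRCm39, with tool versions not given in the sources used here. Each library has its own column of deposited TPM values, 1 per gene, so depth is unknown and precision comes from 3 replicates per group. Whether replicates are separate mice is given only as biological replicate numbers in the labels.

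From TPM, log2(TPM + 1) was fitted per tissue with limma 3.58.1 in R 4.3.3 (lmFit, eBayes with a trend, two-sided) over the genes that averaged 1 TPM or more in CORT or in Veh, without covariates. The Benjamini-Hochberg adjustment ran over all of them, and a gene passed at an adjusted p of 0.05 or less with a fold change over 1.5. The design had also foreseen a count model, which TPM cannot feed. The fits were tested on simulated data. The members and lists were chosen with earlier results of these data known.

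The text names all 10 enzymes, every listed gene that passed in the duodenum and the 2 highest genes per list of brush border, carrier and transcription factor genes, and all other named genes, those of the cell type marker lists in both tissues and the remaining liver genes among them, were picked after their values were seen. Alternatives were a pseudocount of 0.1, no filter, the replicate number as a block, median-ratio scaling, unadjusted p-values, no fold limit, removal of acinar genes, scaling by pan-epithelial genes, Veh2 and Veh3 left out, and each library left out. Promoter windows came from RefSeq (GRCm38.p6, 32851 windows).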

Additional observations from a re-analysis of the deposited data

How the results depend on the processing

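No enzyme passed in the duodenum in any of the 15 alternatives (0 in each), and Treh alone passed in the liver in all 12 (1 in each). For Treh, unadjusted p-values and no fold limit only loosened a call already made. Counts over all tested genes moved more. In the duodenum 292 genes became 52 without the filter (50 shared), 62 with the replicate block (55 shared), 1395 at unadjusted p, 10 without Veh2 and Veh3 (2 shared), where the lone Veh library was assumed to vary like the CORT libraries, and 66 to 237 with each library left out. In the liver 810 genes became 283 without the filter, 307 with the replicate block, 1808 at unadjusted p and 247 to 831 with each library left out. Scaling by pan-epithelial genes moved the median log2 fold change of all duodenal genes to 0.16 and gave 0.16 for Sis and 0.038 for Tmprss15, a change of sign. Without Veh2 and Veh3 the sign changed for Lct (-0.21), Dpp4 (-0.32), Enpep (-0.13), Mep1a (-0.34), Tmprss15 (0.24), Alpi (0.075), Akp3 (0.93) and Pdx1 (0.45). With each library left out it changed for Sis (-0.15 to 0.12), Anpep (-0.58 to 0.15) and Tmprss15 (-0.35 to 0.15). The causes were not tested. Slc1a1 missed the threshold with no filter (adjusted p = 0.0982) with the replicate block (adjusted p = 0.0971) and without Veh2 and Veh3 (adjusted p = 0.308), and Nt5e in the liver with no filter (adjusted p = 0.0758) and with the replicate block (adjusted p = 0.0705). Same-numbered CORT and Veh libraries deviated together with correlations of 0.054, 0.073 and -0.0039 in the duodenum and 0.038, -0.0084 and -0.12 in the liver, so the numbers were not taken to pair samples, and not every library correlated best with its own number.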
